A study of Homo sapiens with 6 samples.

Results

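The genes of the mitochondrial ribosomal proteins were examined in RNA-seq libraries of A2780 cells, an established line described in the labels as serous ovarian cancer. Members were all genes whose symbol begins with MRPL or MRPS followed by a number, with the counts of their transcripts summed. This rule used names and no measured value, and it found 72 of 16571 genes, from 90 of 21368 transcripts in the table. The 3 control libraries came from cells with the pGIPZ-NC vector, and the other 3 from cells with a short hairpin RNA against USP39 (shUSP39), a protein of the spliceosome. Both groups were infected with lentivirus, and the study's methods describe stable lines selected after infection, so the control cells carried the vector and went through selection too. Which of the study's hairpins the libraries carried is not stated in the labels, and the labels were not checked against the targeted gene, because USP39 was not analysed here.

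Mitochondria carry their own small genome and translate its messenger RNAs on their own ribosomes. The RNA of these ribosomes is made inside the organelle, whereas every protein of their large (MRPL) and small (MRPS) subunits is encoded in the nucleus, made in the cytosol and imported. Some of these proteins descend from those of the bacterial ribosome, and others exist only in mitochondria. The products of this translation are core subunits of the respiratory chain and of the ATP synthase. A few names mislead. MRPS30 and MRPS18A encode proteins of the large subunit, and the protein of MRPS36 belongs to a dehydrogenase complex rather than to the ribosome.

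Many of these genes have compact promoters that they share with a neighbour. The windows from 250 bases before to 50 bases after the start were available from RefSeq (GRCh38.p14) for 63 of the 72 members. Those of MRPL45 and MRPS30, which fell, and of MRPL52 and MRPS34, which rose, are shown as examples. Each of these holds a motif counted below. The windows of MRPL33 and MRPS25, also among the largest called falls and rises, held none of these motifs and are not shown. Capitals mark matches, on either strand, to CACGTG (E-box) and GGGCGG (SP1) in MRPL45, CCAAT in MRPS30, GCATGCGC (NRF1) and CCGGAAGT (ETS) in MRPL52, and CCGGAAGT and GGGCGG in MRPS34. None of the marked matches overlapped another.
MRPL45, chr17:38296918-38297217, plus strand: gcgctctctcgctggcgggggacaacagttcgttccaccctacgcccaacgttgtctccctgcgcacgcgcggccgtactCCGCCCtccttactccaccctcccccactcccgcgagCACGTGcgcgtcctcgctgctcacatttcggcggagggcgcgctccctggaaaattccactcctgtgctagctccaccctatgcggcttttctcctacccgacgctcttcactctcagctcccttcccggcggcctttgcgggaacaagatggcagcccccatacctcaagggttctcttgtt
MRPS30, chr5:44808697-44808996, plus strand: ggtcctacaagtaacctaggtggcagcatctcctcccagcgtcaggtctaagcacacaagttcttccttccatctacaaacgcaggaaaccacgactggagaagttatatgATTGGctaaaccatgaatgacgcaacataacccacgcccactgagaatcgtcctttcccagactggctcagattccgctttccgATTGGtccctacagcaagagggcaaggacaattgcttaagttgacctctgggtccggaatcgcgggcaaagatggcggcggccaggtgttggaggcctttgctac
MRPL52, chr14:22829637-22829936, plus strand: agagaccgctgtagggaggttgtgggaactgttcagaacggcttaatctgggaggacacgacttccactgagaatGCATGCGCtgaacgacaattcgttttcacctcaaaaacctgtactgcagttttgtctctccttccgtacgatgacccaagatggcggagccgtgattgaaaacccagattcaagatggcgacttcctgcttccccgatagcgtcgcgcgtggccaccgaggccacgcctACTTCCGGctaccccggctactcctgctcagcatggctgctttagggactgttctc
MRPS34, chr16:1773085-1773384, minus strand: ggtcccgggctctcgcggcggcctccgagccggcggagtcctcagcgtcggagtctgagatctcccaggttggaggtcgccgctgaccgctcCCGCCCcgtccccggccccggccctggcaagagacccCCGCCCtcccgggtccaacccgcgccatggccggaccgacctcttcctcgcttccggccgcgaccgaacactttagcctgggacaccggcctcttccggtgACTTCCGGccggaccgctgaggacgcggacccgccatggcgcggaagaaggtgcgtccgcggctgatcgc

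These motifs were counted in all windows of the same length, as a description of letters and not of binding. CCGGAAGT was found in 11 of the 63 member promoters (17.5%), against 8.75% of the promoters of tested genes and 4.14% of all 35116 promoters. GCATGCGC, a motif of the respiratory gene regulator NRF1, was found in 6 members (9.52%), against 5.40% of tested genes and 3.05% of all promoters. The shares of CACGTG were 9.52% of members, 10.2% of tested genes and 7.26% of all promoters. GGGCGG was held by 60.3% of members, 71.1% of tested genes and 44.95% of all promoters. CCAAT was held by 30.2%, 36.6% and 34.6%, and TATAAA by 3.17%, 5.36% and 11.5%, in the same order. The called members with a window were 17 that fell and 7 that rose. The ETS motif was found in 4 that fell and 2 that rose, the NRF1 motif in 1 and 2, the E-box in 4 and 0, the SP1 motif in 6 and 4, and the CCAAT box in 3 and 4. TATAAA was found in 0 of either.

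The libraries held between 28294819 and 32939264 counts. The number of genes with a count was between 12662 and 12819 in the control libraries and shUSP39 replicate 1, but 15446 and 14890 in shUSP39 replicates 2 and 3. Replicates differed by more than counting noise (chi-square over degrees of freedom 4.63 or more), so none was a duplicate. The study calls the samples of each group biologically independent, but neither it nor the labels say whether the replicates were separate cultures. The p-values measure the spread between these libraries, which may be partly technical. Several defining markers of an ovarian carcinoma were nearly absent, with at most 6 counts of PAX8 or EPCAM and at most 16 of KRT7 in any library. Over the 6 ovarian carcinoma markers in the table, the summed level was between 21.9 and 25.3 CPM (counts scaled to a common library size by edgeR) in the control libraries and between 32.8 and 39.7 CPM in shUSP39. Nearly all of this was KRT18, while KRT8 went the other way, from 28, 37 and 26 counts to 3, 0 and 0, and MUC16 had 150 and 71 counts in shUSP39 replicates 2 and 3 and at most 6 in the other libraries. The summed level of 4 fibroblast markers was between 1116 and 1184 CPM in the control libraries and between 458 and 478 CPM in shUSP39, nearly all of it from COL1A2. The other markers were low and did not share its direction. From control to shUSP39, mean levels went from 7.42 to 6.58 CPM in COL1A1, 1.13 to 1.40 in PDGFRB and 1.12 to 0.079 in DCN. Leukocyte markers summed to at most 0.496 CPM and endothelial markers to at most 1.75 CPM in any library. The part of these differences in the results below was not tested, and in bulk RNA fewer cells of a type and less RNA per cell cannot be told apart.

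As a whole, the mitochondrial ribosomal protein genes took a slightly smaller share of the counts in shUSP39. The share was 0.832%, 0.821% and 0.824% in the control libraries, against 0.808%, 0.787% and 0.807% in the shUSP39 libraries, each in the order of the replicate numbers, as in all lists of libraries below. All 3 shUSP39 libraries thus lay below all 3 control libraries, a difference that was not tested. To ask which genes differed, shUSP39 was compared with pGIPZ-NC by edgeR's quasi-likelihood test over 10695 genes, with Benjamini-Hochberg adjustment over all of them. A gene was called, and is said to have risen or fallen, at an adjusted p under 0.05. Of the 72 members 71 passed the filter on low counts. MRPL39, of the large subunit, was left out, with 8, 9 and 6 counts in the control libraries and 15, 13 and 8 in shUSP39.

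Among the 71 tested members 20 fell (28.2%) and 7 rose (9.86%), whereas of all tested genes 17.5% fell and 16.1% rose. The other 44 members did not pass, and 31 of these lay within 0.1 of 0 on the log2 scale. The changes were small. The called falls were by 23.7% of the control level at most, and no member changed beyond 2-fold, while 6.81% of all tested genes did. With DESeq2 and with limma-voom the number beyond 2-fold was also 0, and likewise at an unadjusted p under 0.05 with edgeR. The median log2 fold change of the members was -0.09, against 0.01 over all tested genes. All shUSP39 libraries lay below all control libraries in 27 members (38.03%), against 22.5% of tested genes, and above them in 12 members (16.9%), against 21.7%.

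These shares have to be read against the level of the genes. The members had a median of 85.6 CPM and all tested genes a median of 11.03 CPM, and a small change is easier to detect in a gene with many counts. Among genes with at least 50 CPM, a limit chosen after the data were seen, 16 of 43 members fell (37.2%), close to the 35.4% of all 3211 genes at that level. In the same range 3 of 43 members rose (6.98%), against 19.2% of all genes. The share that fell was therefore near the background of equally expressed genes, and the share that rose was below it. The median log2 fold change at this level was -0.09 in members and -0.05 in all genes. All shUSP39 libraries lay below all control libraries in 44.2% of these members and 39.9% of these genes, and above them in 11.6% and 22.6%. None of these differences was tested. Without shUSP39 replicates 2 and 3, the libraries with more genes detected, 5 of 72 members fell (6.94%) and 4 rose (5.56%), against 10.8% and 8.96% of all 11374 genes tested in that fit, which has 1 shUSP39 library. Scaling by the upper quartile moved the split to 15 members lower and 9 higher, from 74.1% to 62.5% of the calls being lower. Over all genes the same scaling moved the share of calls that were higher from 48.0% to 58.0%.

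**Figure D1:**
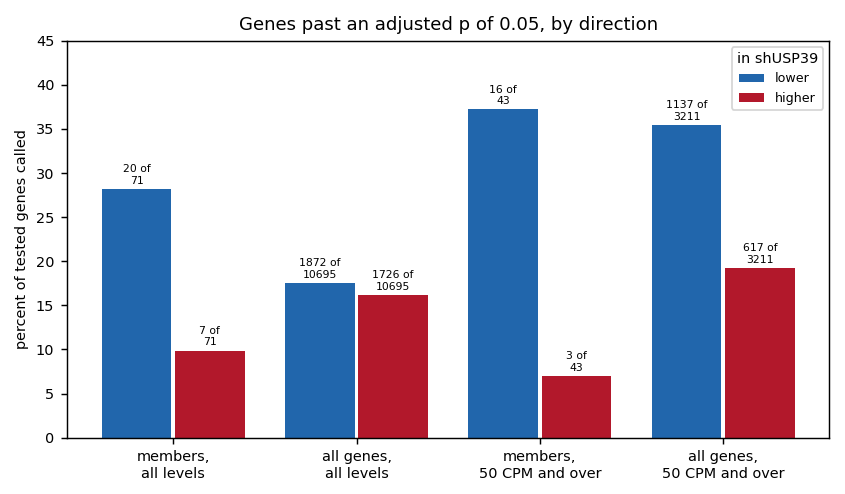
Percent of tested genes called lower (blue) or higher (red) in shUSP39, for the members and for all genes, at all levels and at 50 CPM and over, with the numbers of genes above the bars. At 50 CPM and over, 37.2% of members and 35.4% of all genes were lower, while 6.98% of members and 19.2% of all genes were higher.

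Of the 47 tested proteins of the large subunit 17 fell (36.2%) and 4 rose (8.51%), with a median log2 fold change of -0.11. Of the 23 of the small subunit 3 fell and 3 rose (13.0% each), with a median of -0.06. The median level was 85.6 CPM in the large and 87.2 CPM in the small subunit. Of all genes at 50 CPM and over 35.4% fell, which was near the share in the large subunit and above that in the small subunit. The sets are not alike, since both subunits also include genes under 50 CPM. Within the large subunit, 10 of 28 proteins with a bacterial counterpart fell and 2 rose, and 7 of 19 found only in mitochondria fell and 2 rose. In the small subunit, 3 of 13 proteins with a bacterial counterpart fell and 1 rose. Of the 10 small-subunit proteins found only in mitochondria, 2 rose and 0 fell in the edgeR fit, where 1 was lower at an unadjusted p under 0.05. DESeq2 called that 1 lower and limma-voom called 0. The difference between the subunits was not tested. MRPS36, the member that is not a ribosomal protein, did not pass, with a log2 fold change of -0.10 (SE 0.07).

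**Figure D2:**
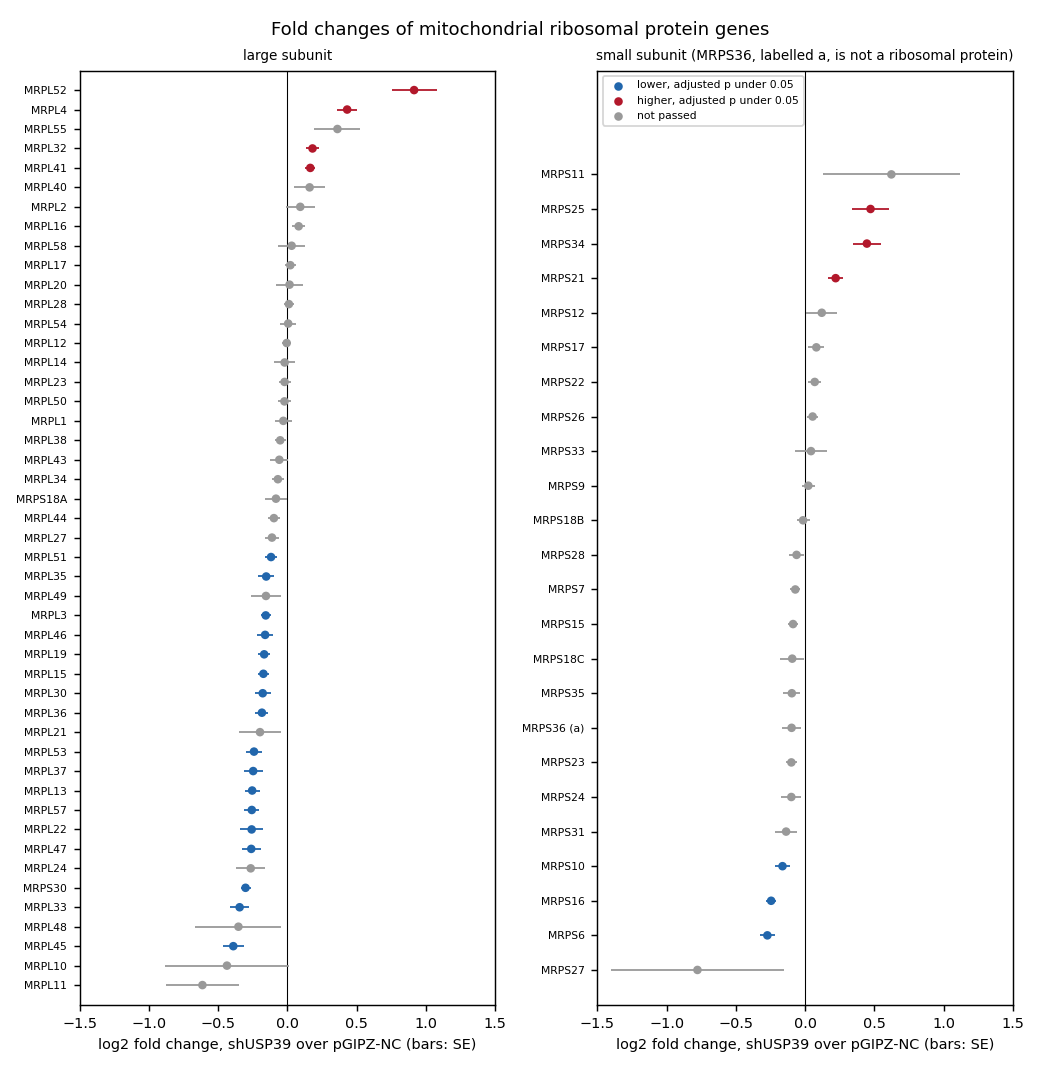
Log2 fold change (horizontal axis, bars give the SE) of each of the 71 tested members, with the large subunit on the left and the small subunit and MRPS36 on the right. Blue and red mark members past an adjusted p of 0.05, which run from -0.39 for MRPL45 to 0.91 for MRPL52, and the widest bars belong to genes with few counts such as MRPS27.

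MRPL45, which lies at the tunnel exit and ties the ribosome to the inner membrane, had the largest fall among members that passed. The gene lies on chromosome 17 from 36452989 to 36479100, plus strand, in GRCh37 (all gene positions below are in this build). Its level was 40.5, 39.2 and 39.9 CPM in the control libraries and 32.6, 30.4 and 28.3 CPM in shUSP39. The groups were well apart, and expression fell by 23.7% (log2 fold change -0.39, SE 0.08, adjusted p = 0.000198). MRPL33 (chromosome 2, 27994584 to 28210954, plus strand), a small protein with a bacterial counterpart, was at 56.0, 52.2 and 52.5 CPM in the control libraries and at 45.3, 40.1 and 41.2 CPM in shUSP39. All shUSP39 libraries were lower (log2 fold change -0.34, SE 0.07, adjusted p = 0.000279). MRPL33 overlaps BABAM2 on its own strand and RBKS on the other, and reads in the overlap could not be assigned with certainty. Of the 20 members that fell 10 overlap a protein-coding gene on either strand, and of the 7 that rose 2. Such overlaps were about as common among the members that did not pass as among those that fell.

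MRPS30 (chromosome 5, 44809049 to 44820530, plus strand), found only in mitochondria, had the smallest adjusted p among the members. Its level was 319, 314 and 316 CPM in the control libraries and 256, 255 and 258 CPM in shUSP39. The spread within either group was far smaller than the gap between them, and the log2 fold change was -0.30 (SE 0.04, adjusted p = 1.83e-07). MRPL57 (chromosome 13, 21750797 to 21753223, plus strand), also found only in mitochondria, was at 130, 132 and 130 CPM and fell to 104, 104 and 121 CPM. Replicate 3 of shUSP39 was nearer to the controls than the other two, but still below them (log2 fold change -0.26, SE 0.06, adjusted p = 0.000557).

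Further falls among the large-subunit proteins with a bacterial counterpart were in MRPL47, MRPL22 and MRPL13. MRPL47 (chromosome 3, 179306073 to 179322437, minus strand) sits by the tunnel exit. It was at 68.0, 58.5 and 61.8 CPM in the control libraries and at 53.1, 48.5 and 55.5 CPM in shUSP39. The groups were separate but close (log2 fold change -0.26, SE 0.07, adjusted p = 0.0043). MRPL47 overlaps ACTL6A on the other strand, so reads there may belong to either gene. MRPL22 (chromosome 5, 154320633 to 154348971, plus strand), which lines the exit tunnel, was at 36.8, 36.3 and 31.3 CPM in the control libraries and at 30.6, 28.1 and 28.7 CPM in shUSP39. The lowest control library nearly met the highest shUSP39 library, and the log2 fold change was -0.26 (SE 0.08, adjusted p = 0.0155). This call was lost without pGIPZ-NC replicate 1 (adjusted p = 0.0751), pGIPZ-NC replicate 2 (adjusted p = 0.0708) or shUSP39 replicate 2 (adjusted p = 0.0667). MRPL13 (chromosome 8, 121393000 to 121457642, minus strand) was at 96.5, 92.9 and 92.4 CPM in the control libraries and at 82.3, 77.1 and 76.8 CPM in shUSP39. Here the groups lay apart by more than their spread (log2 fold change -0.25, SE 0.05, adjusted p = 0.000554).

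MRPS6 (chromosome 21, 35445524 to 35515334, plus strand) was the small-subunit gene with the largest fall among those that passed. Its level was 93.1, 93.2 and 100 CPM in the control libraries and 80.2, 78.2 and 78.5 CPM in shUSP39. The groups did not overlap, and the log2 fold change was -0.27 (SE 0.05, adjusted p = 0.000238). SLC5A3 lies within its region on the same strand, so reads there may belong to either gene. The other members that fell were MRPL3, MRPL15, MRPL19, MRPL30, MRPL35, MRPL36, MRPL37, MRPL46, MRPL51, MRPL53, MRPS10 and MRPS16. Among these 12, MRPS16 had the smallest adjusted p, with 323 ± 13.1 CPM (SD, n = 3) in the control libraries and 273 ± 4.26 CPM (SD, n = 3) in shUSP39 (edgeR adjusted p = 1.18e-05). It was picked out after its values were seen. In MRPL35 and MRPL46 the libraries of the groups overlapped. The calls of MRPL30, MRPL35, MRPL46, MRPL51 and MRPS10 were lost without at least 1 of the libraries, with an edgeR adjusted p of up to 0.233 for MRPL35.

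**Figure D3:**
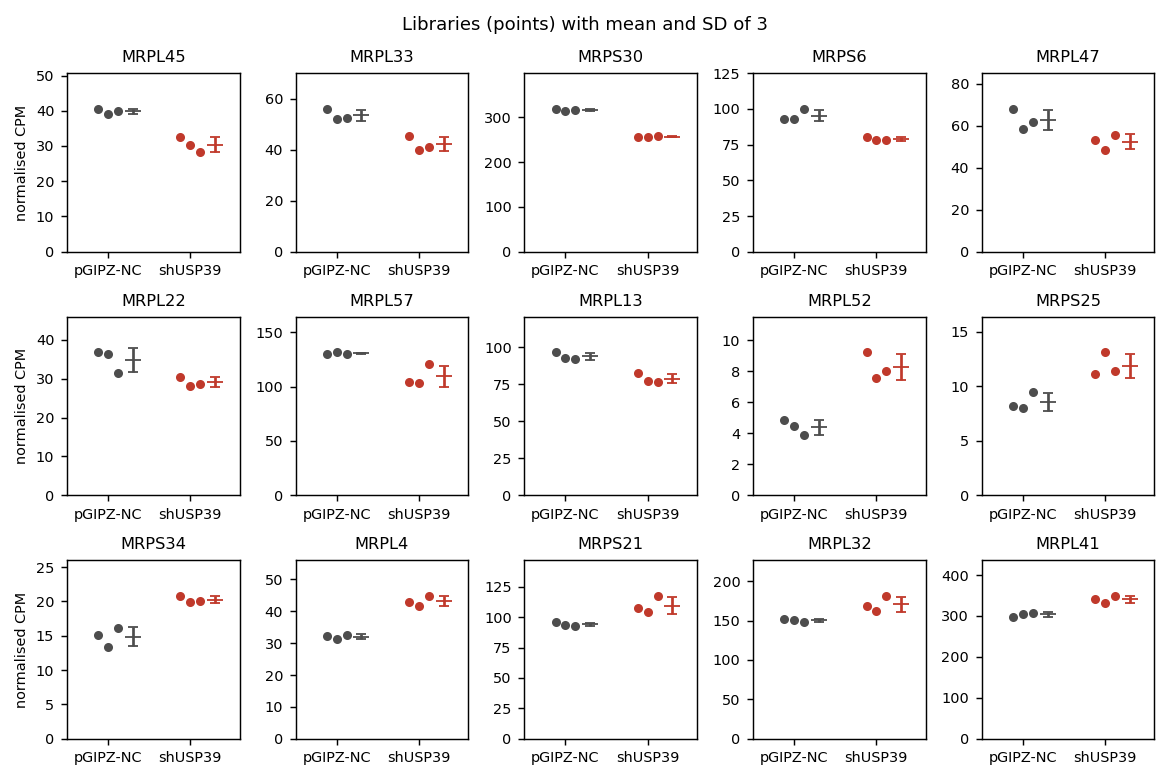
Normalised CPM (vertical axis, from 0) of the 8 members with the largest falls and of the 7 that rose, with 1 point per library and the mean and SD of each group beside it. In each panel the 3 shUSP39 libraries lie on 1 side of the 3 control libraries, by as little as 30.6 against 31.3 CPM in MRPL22.

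Of the 7 rises the 4 largest were in genes under 50 CPM. MRPL52 (chromosome 14, 23299088 to 23304246, plus strand), a large-subunit protein found only in mitochondria, rose most. Its level was 4.83, 4.46 and 3.86 CPM in the control libraries and 9.22, 7.58 and 8.05 CPM in shUSP39. Every shUSP39 library was well above every control library, and the log2 fold change was 0.91 (SE 0.16, adjusted p = 6.2e-05), an 88.6% gain. MRPS25 (chromosome 3, 15051118 to 15106846, minus strand), of the small subunit, was at 8.15, 8.04 and 9.46 CPM in the control libraries and at 11.1, 13.1 and 11.4 CPM in shUSP39. The groups did not overlap (log2 fold change 0.47, SE 0.13, adjusted p = 0.00584). MRPS25 overlaps NR2C2 on the other strand, so reads there may belong to either gene.

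MRPS34 (chromosome 16, 1821891 to 1823151, minus strand), a small-subunit protein in which mutations cause a mitochondrial disease of the brain, was at 15.1, 13.3 and 16.2 CPM in the control libraries and at 20.8, 19.9 and 20.0 CPM in shUSP39. The shUSP39 libraries were close to each other and above all controls (log2 fold change 0.45, SE 0.10, adjusted p = 0.000992). MRPL4 (chromosome 19, 10362577 to 10370731, plus strand), a lining protein of the exit tunnel, was at 32.4, 31.2 and 32.5 CPM in the control libraries and at 43.1, 41.6 and 44.8 CPM in shUSP39. The gap was several times the spread within either group (log2 fold change 0.43, SE 0.07, adjusted p = 2.86e-05).

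The other 3 rises were in abundant genes and were smaller. MRPS21 (chromosome 1, 150266281 to 150281414, plus strand) went from 94.0 ± 1.56 to 110 ± 7.03 CPM (SD, n = 3 per group, edgeR adjusted p = 0.00206), and MRPL32 (chromosome 7, 42971975 to 42988557, plus strand), whose protein is trimmed by a protease of the inner membrane before it joins the ribosome, from 150 ± 2.09 to 171 ± 9.82 CPM (SD, n = 3 per group, edgeR adjusted p = 0.00292). MRPL41 (chromosome 9, 140446331 to 140447007, plus strand) was at 298, 305 and 308 CPM in the control libraries and at 342, 331 and 349 CPM in shUSP39. These 3 genes did not overlap between groups either, and the log2 fold changes were 0.22 (SE 0.05), 0.18 (SE 0.05) and 0.17 (SE 0.04, adjusted p = 0.000728).

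Because USP39 acts in splicing, the use of transcripts within members was tested where at least 2 transcripts had enough counts. This was the case in 9 members, and the test covered 1628 genes in all, of which 3.69% passed. MRPL52 was the only member of the 9 with an adjusted p under 0.05 (adjusted p = 0.00271, edgeR). The read count of its transcript NM_001318870.1 was 55, 59 and 18 in the control libraries and 180, 137 and 143 in shUSP39. That of NM_181304.2 was 99, 86 and 91 in the control libraries and 115, 95 and 95 in shUSP39. Only the first thus stood apart between the groups. It made up 31.0 ± 12.8% (SD, n = 3) of the gene's counts in the control libraries and 60.1 ± 0.983% (SD, n = 3) in shUSP39, and pGIPZ-NC replicate 3 was far below the other two controls. In a fit of single transcripts, of which 29.3% passed in all, the log2 fold change was 1.82 (SE 0.28, adjusted p = 1.12e-05) for NM_001318870.1 and 0.15 (SE 0.21, adjusted p = 0.671) for NM_181304.2. RefSeq lists 7 messenger RNA transcripts of MRPL52, of which the table held these 2, and reads that transcripts share may be missing from both counts. MRPS33, of the small subunit, had the next smallest adjusted p for usage and did not pass (adjusted p = 0.0781).

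**Figure D4:**
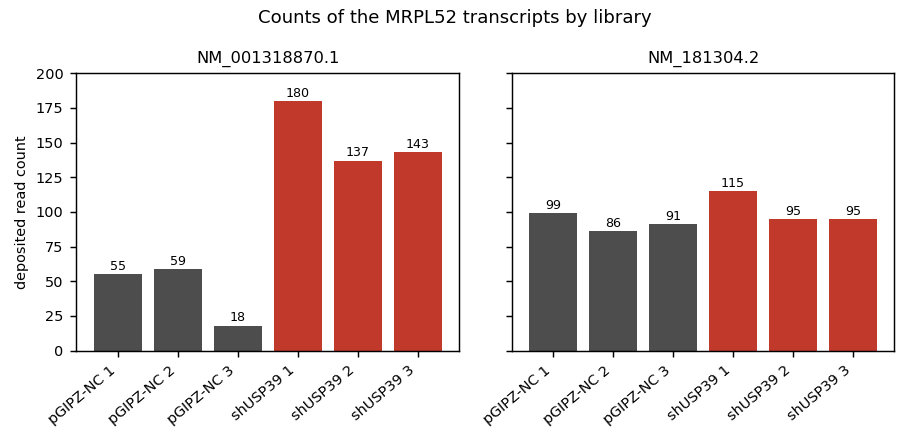
Deposited read counts (vertical axis) of the MRPL52 transcripts NM_001318870.1 (left) and NM_181304.2 (right) in the 3 pGIPZ-NC libraries (grey) and the 3 shUSP39 libraries (red). The left transcript runs from 18 to 59 in the control libraries and from 137 to 180 in shUSP39, while the right one runs from 86 to 99 and from 95 to 115.

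Per kb of transcript length, member levels differed widely although the proteins sit in the same particle. The highest were MRPL12, the stalk protein that binds translation factors, at 641 CPM per kb, MRPL41 at 553 CPM per kb, and the small-subunit MRPS26 at 306 CPM per kb. MRPL12 was at 635, 653 and 656 CPM in the control libraries and at 624, 638 and 676 CPM in shUSP39, ranges that overlapped (log2 fold change 0.00, SE 0.03, adjusted p = 0.937). MRPS26 was at 306, 304 and 307 CPM in the control libraries and at 312, 307 and 333 CPM in shUSP39 and did not pass (adjusted p = 0.298). The lowest tested members were the small-subunit MRPS27, at 0.175 CPM per kb, and MRPS11, at 0.181 CPM per kb. MRPS27 had 21, 12 and 23 counts in the control libraries and 15, 16 and 2 in shUSP39, and its log2 fold change of -0.78 (SE 0.63) had the largest size below 0 and did not pass. MRPS11 had 20, 14 and 11 counts in the control libraries and 26, 22 and 21 in shUSP39, with a log2 fold change of 0.62 (SE 0.50) that did not pass. Low levels went with the number of transcripts of a gene. The 36 members with 1 RefSeq messenger RNA transcript had a median of 104 CPM per kb and the 34 tested members with more had a median of 22.3 CPM per kb. Whether reads shared by transcripts were left out of the table, which would lower the latter, was not tested.

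In gene structure the members were short, with a median of 5 exons and 1218 bases of transcript, against 9 exons and 3310 bases over all tested genes. Across the 71 members, Spearman's rho with the log2 fold change was -0.20 for the number of exons, -0.19 for the transcript length and 0.02 for the mean CPM. These are descriptions across genes of the same 6 libraries, which are not independent of each other. Over all tested genes with a known structure the rho for exons was -0.12.

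Members often lay head to head with another gene, with starts within 1000 bases of each other on opposite strands. This was so in 25 of 72 members (34.7%), against 17.7% of tested genes. A tested neighbour was available for 21 of them. Of the 9 called members among these, 5 fell together with their neighbour, 1 rose with it, and 3 had a neighbour that did not pass, while 0 were called in opposite directions. Over all tested genes 17.5% fell and 16.1% rose, and at 50 CPM and over 35.4% fell and 19.2% rose. Among the uncalled members with a tested neighbour, 2 had a neighbour that was called. MRPL36 and NDUFS6, a subunit of respiratory complex I, start 41 bases apart, and both fell, with log2 fold changes of -0.30 in NDUFS6 (SE 0.04, adjusted p = 2.5e-06) and -0.18 in MRPL36. The starts of MRPL47 and NDUFB5, another complex I subunit, also lie 41 bases apart. NDUFB5 fell by 0.33 on the same scale (SE 0.12, adjusted p = 0.0416). The neighbours of MRPL13, MRPL51 and MRPL57 were MTBP, NCAPD2, a subunit of condensin, and SKA3, which acts at the kinetochore. They fell by 0.33 (SE 0.09), 0.25 (SE 0.03) and 0.48 (SE 0.13). MRPS34 rose with EME2, a nuclease subunit in DNA repair, at 0.32 (SE 0.08, adjusted p = 0.00249). MRPL13, MRPL51 and MRPS34 overlap these neighbours, so reads there may have been counted for either gene. MRPL46 and MRPS11 are each other's neighbour, and MRPL46 fell while MRPS11 did not pass. MRPS18B did not pass either (log2 fold change -0.01), while its neighbour PPP1R10 fell (-0.36, SE 0.11, adjusted p = 0.0138). Pairs were not compared with pairs of other genes, so the shared directions are given as values.

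**Figure D5:**
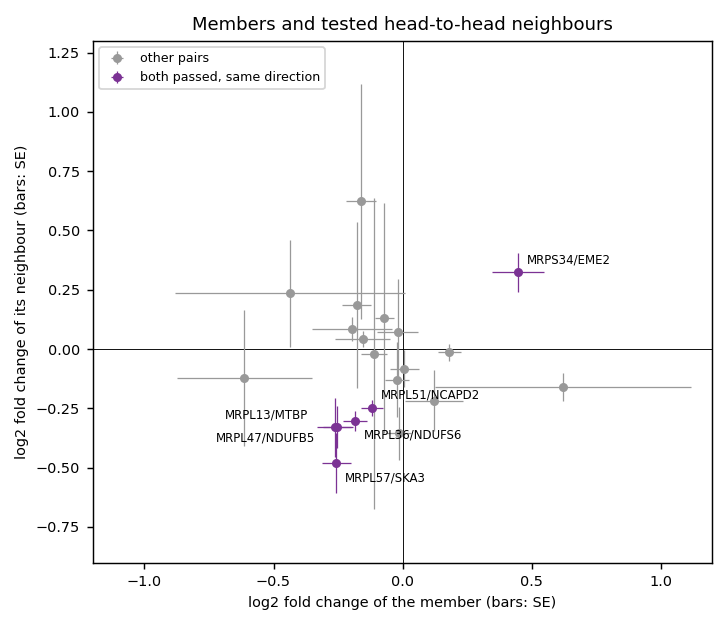
Log2 fold change of each member (horizontal axis) against that of its tested head-to-head neighbour (vertical axis), with bars for the SE, and with the 6 pairs in which both passed in the same direction in purple and named. Of these 6, 5 lie in the lower left and MRPS34 with EME2 in the upper right. Pairs of other genes were not compared.

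Other genes of the same pathway were read from the same fit. Of 5 mitoribosomal proteins with other names, PTCD3 fell (log2 fold change -0.22, SE 0.04, adjusted p = 0.000227). AURKAIP1, CHCHD1, DAP3 and GADD45GIP1 did not pass, with log2 fold changes of 0.08, 0.03, 0.11 and -0.07. The share that fell was 20%, against 17.5% of all tested genes. Of 17 factors that assemble the mitoribosome 3 fell (17.6%) and 2 rose (11.8%), near the 17.5% and 16.1% of all tested genes. Among them MRM1, a methyltransferase of the ribosomal RNA, fell by 0.36 (SE 0.07) and MTG1, a GTPase, by 0.35 (SE 0.05), while MPV17L2 rose by 0.32 (SE 0.06) and the GTPase NOA1 by 0.20 (SE 0.05). Of 10 translation factors 0 were called by edgeR, DESeq2 or limma-voom, and 1 was lower at an unadjusted p under 0.05. By edgeR 17.5% of all tested genes fell and 16.1% rose. The median level of these factors was only 2.51 CPM, where small changes are hard to detect, so the lack of calls does not show that they were unchanged. Of 16 mitochondrial aminoacyl-tRNA synthetases, which load the transfer RNAs, 3 fell (18.75%) and 0 rose, with the same counts from DESeq2 and limma-voom. At an unadjusted p under 0.05, 4 were lower and 0 higher. CARS2 fell by 0.44 (SE 0.05) and IARS2 by 0.40 (SE 0.04).

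Of 6 genes that handle the mitochondrial messenger RNA or insert the new proteins, 2 fell (33.3%). Their median level was 287 CPM, and this share was near the 35.4% of all genes at 50 CPM and over. The 2 genes were OXA1L, the insertase of the inner membrane, which fell by 0.22 (SE 0.03), and LRPPRC, which stabilises the messenger RNA, by 0.17 (SE 0.03). None of the other 4 passed. Of 5 regulators of mitochondrial biogenesis, MYC rose by 0.44 (SE 0.03) and the other 4 did not pass. This was 20% of the list, against 16.1% of all tested genes that rose.

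Among the nuclear genes of the respiratory chain and ATP synthase, the machines that mitochondrial translation serves, 22 of 74 fell (29.7%) and 0 rose by edgeR or DESeq2 or limma-voom, and 1 was higher at an unadjusted p under 0.05. Their median log2 fold change was -0.10. UQCRH, of complex III, fell by 0.51 (SE 0.13, adjusted p = 0.00253) and NDUFV2, of complex I, by 0.42 (SE 0.04, adjusted p = 5.98e-09). Among the 76 proteins of the cytosolic ribosome 26 fell (34.2%) and 4 rose (5.26%), with a median of -0.07. RPL21 fell by 0.38 (SE 0.04) and RPL37 by 0.35 (SE 0.04), and RPSA rose by 1.00 (SE 0.18) and RPS24 by 0.58 (SE 0.19), both at under 10 CPM. Upper-quartile scaling called 1 synthetase and 1 gene of messenger RNA handling higher, and it moved the counts to 19 lower and 2 higher in the respiratory chain and to 11 lower and 8 higher in the cytosolic ribosome. Most of these genes are highly expressed, with medians of 91.1 CPM in the respiratory chain and 597 CPM in the cytosolic ribosome, so that the 35.4% lower and 19.2% higher of all genes at 50 CPM and over are the nearer background. The lists were not tested against each other, and cytosolic ribosomal protein genes have many processed copies, so their counts are uncertain.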

How the data were processed

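RNA was extracted with Trizol from 3 pGIPZ-NC and 3 shUSP39 samples of A2780 cells and sequenced. The authors deposited 1 table of raw read counts per RefSeq transcript, with 1 column per library. The labels name HISAT2, Cufflinks and hg19 without a role, and the counter, annotation and use of strand are not given in the sources used here. The deposited table also holds the authors' group means, fold, p and q values, which were not used. Reads shared by transcripts may have been left out, which would lower genes with several transcripts.

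Counts were summed per gene symbol. Symbols in the form of a date (47 rows) were replaced through the transcript identifier in 46. Genes were filtered with filterByExpr, scaled by TMM and tested with the robust quasi-likelihood test of edgeR 4.0.16 in R 4.3.3, with the group as the only term and Benjamini-Hochberg adjustment over all 10695 tested genes. Standard errors were the log2 fold change over the root of F. Transcript usage was tested with diffSpliceDGE of edgeR. Normalised CPM used TMM library sizes, and the CPM of the cell type markers used the library totals alone. The biological coefficient of variation was 7.59%. The tests were tried on simulated counts first. Positions, exons and lengths came from GENCODE 44 on GRCh37 (canonical transcript), and promoters from RefSeq on GRCh38.p14. DESeq2 1.42.0 and limma 3.58.1 were alternatives, with other scalings, filters and left-out libraries. Depth was between 28294819 and 32939264 counts per library, and intervals and p-values cover only these libraries.

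The members and lists were chosen with earlier results of these data known. Named were the 8 largest falls and rises among members that passed (7 rose), the 3 highest and the 3 lowest per kb, members left out by the filter or with changed usage, MRPS6, which is in the study's list of RNAs bound by USP39, mitoribosomal proteins with other names, and the 2 largest rises and falls of each other list. Head-to-head neighbours and MRPS16, MRPS33 and MRPS36 were added after the values were seen. Of the mitoribosomal proteins MRPL9, MRPL18, MRPL42, MRPS2, MRPS5 and MRPS14 were not analysed here.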

Additional observations from a re-analysis of the deposited data

How the results depend on the processing

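The number of members called was 19 lower and 7 higher with DESeq2 size factors, and 20 and 7 with the DESeq2 Wald test or limma-voom. Without shUSP39 replicates 2 and 3, the libraries with more genes detected, 5 were lower and 4 higher, 1 lay beyond 2-fold (MRPL52) and the median log2 fold change was -0.0563. That fit has 1 shUSP39 library, assumed to vary like the controls. All 27 called members kept their direction in it. Among genes with 1 RefSeq transcript 12 members were lower and 3 higher, of 36 tested. With the highest transcript standing for its gene, 1 member (MRPL52) lay beyond 2-fold. The median was -0.0428 under upper-quartile scaling and -0.0617 with library size only, where the median of all genes moved to 0.05 and 0.03. Upper-quartile scaling also called 15 genes higher in the related lists, against 7, and MRPS26 higher (adjusted p = 0.0431, edgeR).

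Leaving out each library in turn gave between 15 and 20 members lower, 7 higher in every fit, and a median between -0.102 and -0.0674. Of the 27 calls 21 held in all 6 fits. The calls lost were MRPL22 (without pGIPZ-NC replicates 1 or 2 or shUSP39 replicate 2, adjusted p up to 0.0751), MRPL30 (pGIPZ-NC 1, shUSP39 2, up to 0.111), MRPL35 (any but shUSP39 1, up to 0.233), MRPL46 (pGIPZ-NC 1, 2, shUSP39 1, 3, up to 0.151), MRPL51 (pGIPZ-NC 1, 2, shUSP39 2, 3, up to 0.217) and MRPS10 (pGIPZ-NC 2, 3, shUSP39 2, 3, up to 0.128), all by edgeR.

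The direction of MRPL12, near 0, turned under upper-quartile scaling (0.0394), library size only (0.0205), the highest transcript (0.00086), genes with 1 RefSeq transcript (0.0016), and without shUSP39 replicate 1 (0.0163) or 2 (0.0033), with a range of -0.0386 to 0.0163 over the left-out libraries. The cause of these shifts was not tested. Whether the replicate numbers pair the libraries was not tested. Deviations from the group mean had correlations of 0.0856, 0.0120 and 0.0249 in same-numbered libraries, and between -0.0585 and 0.0341 in the other pairs across groups. Over all genes, a replicate block moved the calls from 1872 lower and 1726 higher to 2077 and 1904. With the number as a replicate block 23 members were lower and 7 higher, and the usage call of MRPL52 held (adjusted p = 0.00399, edgeR).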
